A study of Rattus norvegicus with 49 samples.

Results

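De novo lipogenesis, the making of fatty acids from acetyl-CoA, was followed through 9 genes in rat liver. The genes were chosen by name as members of the pathway, with earlier results of these data known. Counts of them beside the share of all genes therefore describe the genes and are no test of the pathway. All 9 were among the 14217 genes that the arrays measured with a probe set of their own. Acly and Acss2 make cytosolic acetyl-CoA, Acaca and Acacb encode the acetyl-CoA carboxylases, Fasn is the fatty acid synthase and Me1, malic enzyme, supplies NADPH. Srebf1 and Mlxipl encode the transcription factors SREBP1 and ChREBP, and Thrsp (Spot 14) is a small protein that promotes lipid synthesis.

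The livers came from male Sprague-Dawley rats about 8 to 10 weeks old, with 1 array per rat. There was no treatment other than the amount of powdered feed and an overnight fast. Group 1 ate ad libitum and was not fasted, and group 2 ate ad libitum and was fasted overnight (8 to 12 hours) before necropsy. Groups 3, 4 and 5 received 15%, 30% and 60% less food, respectively, and were fasted overnight as well, each for 4 or 14 days. There were 5 rats per group and day, except 4 in group 1 at day 14. The fasting is given here as the sample labels and the study's methods have it, whereas the description of the series has all animals fasted. All values are log2 of the deposited array intensity, in which a difference of 1 is a doubling. Intensities depend on the probes, so levels are compared between groups and not between genes. The whole liver was sampled, so fewer cells of a type and less RNA per cell cannot be told apart.

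In a fed animal, citrate leaves the mitochondria and is split by ATP citrate lyase into acetyl-CoA, which the carboxylases turn into malonyl-CoA for the synthase. Malonyl-CoA also blocks the entry of fatty acids into mitochondria. Insulin acts on the pathway largely through SREBP1, and sugar metabolites act through ChREBP, so that liver lipogenesis is known to fall on fasting and to rise on refeeding. Thrsp is a classic target of thyroid hormone and of dietary carbohydrate.

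All 9 genes were higher in the fed rats of group 1 than in the fasted rats of group 2, on both days. Against that fasted baseline the restricted groups, fasted too, did not move as a block. Thrsp rose in each of the 3 restricted groups on both days, covering between 81.6% and 105.2% of the distance from fasted to fed rats, except for 53.6% in group 3 at day 4. Srebf1 rose with the restriction at day 4, in groups 4 and 5, whereas at day 14 it was higher in group 3 alone. The acetyl-CoA and fatty acid enzymes rose in part, most widely with 30% less food at day 14, Me1 fell, and Mlxipl passed the test in none of the restricted groups.

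**Figure D1:**
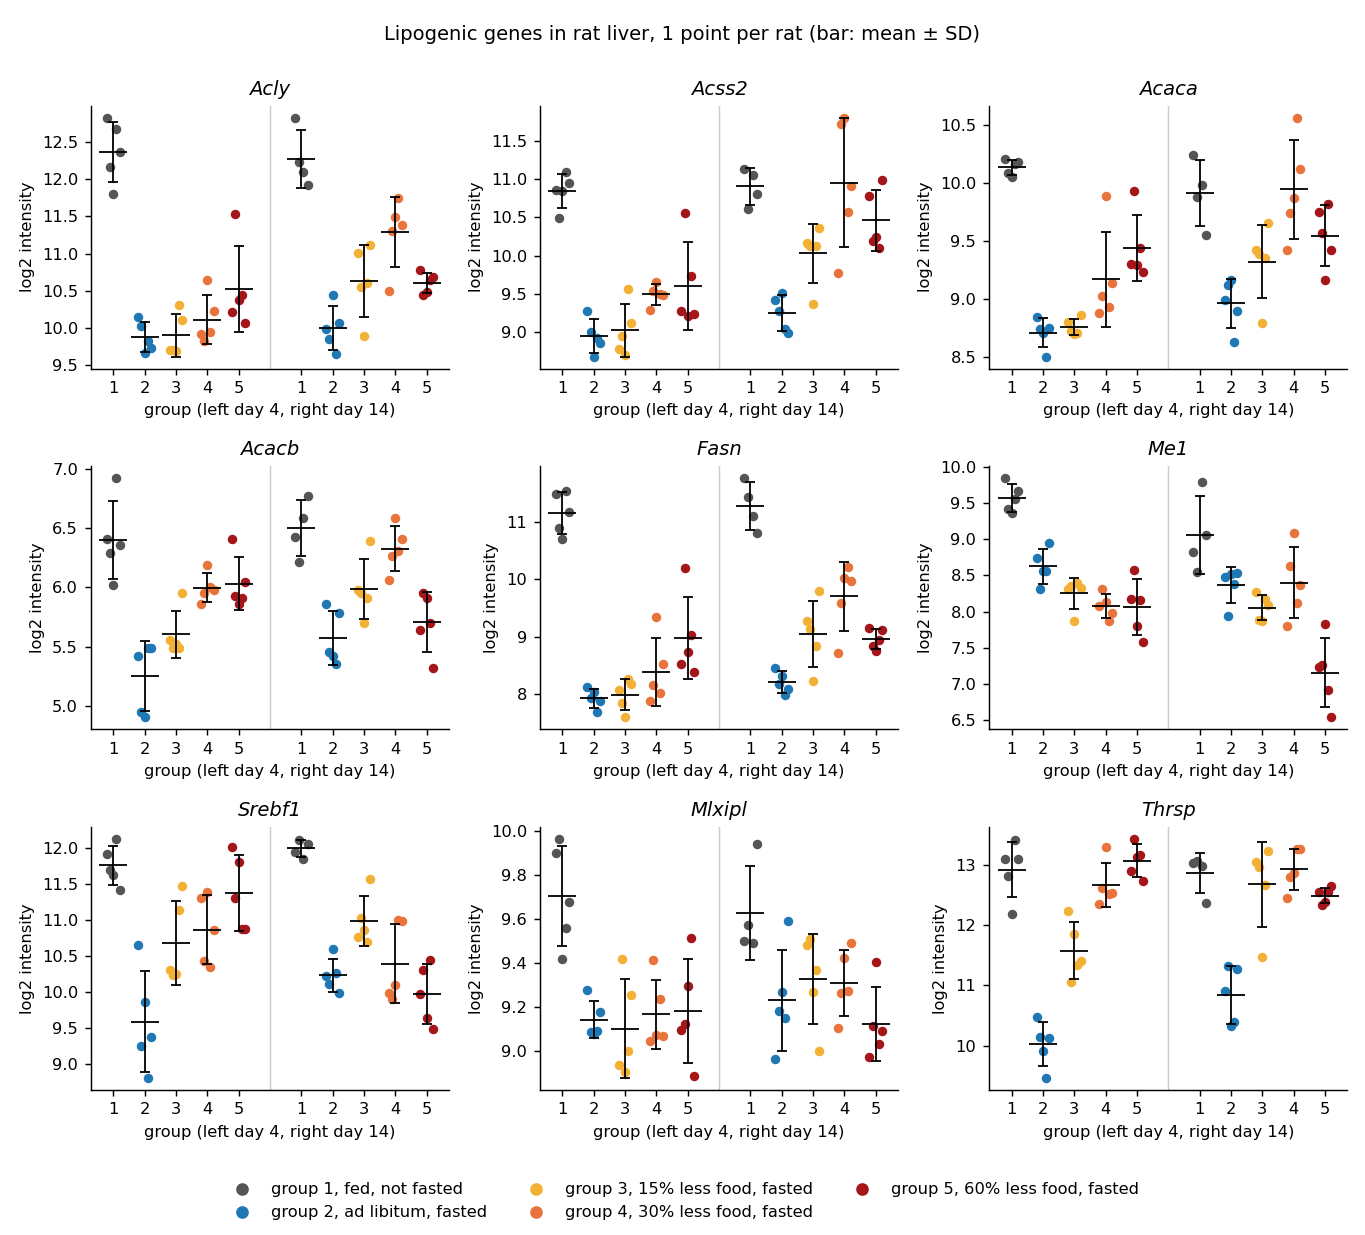
Log2 array intensity of the 9 genes in each rat, with 1 panel per gene, groups 1 to 5 on the x axis (day 4 left, day 14 right), and the mean and SD as black bars. The mean of fed group 1 lies above that of fasted group 2 in every panel, and Thrsp in groups 4 and 5 overlaps with the fed rats, while Fasn in the restricted groups stays below it. The y axes differ between panels.

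The DNA before the transcription start is shown for Thrsp and Srebf1, the genes that differed most between restricted and fasted rats at day 4, and for Acss2, the enzyme with the largest rise in groups 4 and 5 at day 14. The windows are the 250 bases before the RefSeq start, in build GRCr8, read 5′ to 3′ on the gene's strand. Of the 9 genes, 7 had an entry, and Fasn and Acaca had none. The windows of the Mlxipl starts overlap almost fully. Capitals mark CCAAT boxes (CCAAT) and GC boxes (GGGCGG) on either strand.
Thrsp (chr1:161138965-161139214, minus strand): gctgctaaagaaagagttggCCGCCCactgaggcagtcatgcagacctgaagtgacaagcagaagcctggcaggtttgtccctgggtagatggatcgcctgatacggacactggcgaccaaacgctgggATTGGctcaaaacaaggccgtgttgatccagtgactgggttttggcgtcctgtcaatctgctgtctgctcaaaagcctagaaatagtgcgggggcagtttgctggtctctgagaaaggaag
Srebf1, first start (chr10:45529165-45529414, minus strand): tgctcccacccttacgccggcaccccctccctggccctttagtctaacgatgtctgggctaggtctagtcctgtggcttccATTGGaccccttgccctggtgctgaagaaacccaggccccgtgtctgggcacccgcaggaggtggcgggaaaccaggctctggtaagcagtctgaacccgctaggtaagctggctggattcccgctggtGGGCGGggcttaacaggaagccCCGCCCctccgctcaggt
Srebf1, second start (chr10:45519011-45519260, minus strand): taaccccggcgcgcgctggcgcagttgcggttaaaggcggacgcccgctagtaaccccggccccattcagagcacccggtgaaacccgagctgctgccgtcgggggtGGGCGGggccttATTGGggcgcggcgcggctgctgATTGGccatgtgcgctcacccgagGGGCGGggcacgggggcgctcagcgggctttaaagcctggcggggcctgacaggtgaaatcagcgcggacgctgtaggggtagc
Acss2 (chr3:164464453-164464702, plus strand): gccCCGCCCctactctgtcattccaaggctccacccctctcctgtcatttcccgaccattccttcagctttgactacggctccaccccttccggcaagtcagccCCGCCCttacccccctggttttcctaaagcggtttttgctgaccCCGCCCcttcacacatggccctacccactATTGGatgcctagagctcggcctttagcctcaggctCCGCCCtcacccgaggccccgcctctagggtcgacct
The Thrsp window held 1 CCAAT box and 1 GC box. The Srebf1 windows held 1 and 2 CCAAT boxes, with 2 GC boxes each, and the Acss2 window held 1 CCAAT box and 4 GC boxes. Of the 33469 promoter windows in the RefSeq table, 34% held a CCAAT box and 30.5% a GC box, so both are common. Neither the sterol regulatory element TCACNCCAC, present in 0.974% of all windows, nor the E-box CACGTG, present in 5.59%, was found on either strand in the 9 windows of the 7 genes. These letters were searched for in this window alone, and the match or its lack says nothing about binding.

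Groups 1 and 2 both ate ad libitum, so their comparison sets fed against overnight fasted rats without restriction. At day 4 all 9 were higher in group 1, against 21.3% of all genes that passed the test in either direction (limma, adjusted p under 0.1). At day 14 all 9 were higher again, against 13.2% of all genes. The median log2 difference of the 9 genes was 1.90 at day 4 and 1.66 at day 14, whereas over all genes it was 0.003 and 0.013.

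Fasn had the largest fed to fasted difference. At day 4 its 5 fed rats stood at 11.49, 10.89, 10.71, 11.53 and 11.18, and the 5 fasted rats at 8.13, 7.93, 8.03, 7.69 and 7.88. The groups lay far apart, with a difference of 3.23 (SE 0.16, 9.38-fold, adjusted p = 3e-07). At day 14 the means were 11.28 ± 0.41 (SD, n = 4) in group 1 and 8.21 ± 0.19 (SD, n = 5) in group 2, a difference of 3.07 (SE 0.17, adjusted p = 6.83e-06). Acly followed with differences of 2.49 (SE 0.18, adjusted p = 4.7e-06) at day 4 and 2.27 (SE 0.19, adjusted p = 7.44e-05) at day 14. Its fed means were 12.37 ± 0.41 (SD, n = 5) and 12.27 ± 0.39 (SD, n = 4), and its fasted means 9.88 ± 0.21 and 10.00 ± 0.29 (SD, n = 5 each).

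Among the regulators, Thrsp was higher in group 1 by 2.88 at day 4 (SE 0.22, adjusted p = 1.01e-05) and 2.01 at day 14 (SE 0.23, adjusted p = 0.000526). Srebf1 was higher by 2.17 (SE 0.29, adjusted p = 0.00052) and 1.76 (SE 0.11, adjusted p = 2.12e-05). Mlxipl had the smallest differences, 0.56 (SE 0.10, adjusted p = 0.00337) and 0.40 (SE 0.13, adjusted p = 0.0926). No rat of group 1 overlapped with group 2 for any of the 9 genes, apart from Mlxipl at day 14. The share of all genes without such overlap was not counted.

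Of the other enzymes, Acss2 differed by 1.90 and 1.66, Acaca by 1.42 and 0.95, Acacb by 1.14 and 0.92, and Me1 by 0.95 and 0.69, each at day 4 and then day 14. The calls of Me1 and Mlxipl at day 14 were the weakest of the 9. Each was lost when any of 8 of the 9 rats was left out, with adjusted p from 0.107 to 0.161 and differences of 0.44 to 0.77 for Me1 (without any rat but rat 2 of group 1) and from 0.118 to 0.225 and differences of 0.29 to 0.44 for Mlxipl (without any rat but rat 5 of group 2). The second probe set of Me1 gave 0.56 at day 14 (adjusted p = 0.173). Rats are numbered within a group and day in order of deposition, as names only. Markers of stellate cells and fibroblasts moved with this comparison, in that 3 of 8 passed the test upward on each day, among them Lrat by 0.50 at day 4 and 0.99 at day 14. The mean of the 8 markers per rat ran from 8.42 to 8.95 in group 1 and from 7.92 to 8.51 in group 2 at day 4, and from 8.65 to 8.97 and from 8.00 to 8.57 at day 14. Their part in the differences was not tested.

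The restricted groups were compared with group 2, which they all share and which was fasted overnight too. The study's methods do not state when the feed was given. The amount of food and the time since the last meal therefore cannot be told apart. With 15% less food, 1 of the 9 genes was higher at day 4 (0.253% of all genes passed the test) and 4 were higher at day 14 (6.54% of all genes). With 30% less food, 4 were higher and 1 lower at day 4 (5.43% of all genes), and 6 were higher at day 14 (12.8% of all genes). With 60% less food, 5 were higher at day 4 (7.14% of all genes). At day 14, 5 genes rose and 1 fell (19.8% of all genes). The median log2 differences of the 9 genes in groups 3, 4 and 5 were 0.06, 0.46 and 0.73 at day 4 and 0.64, 0.98 and 0.58 at day 14. Those over all genes lay between -0.0018 and 0.0091.

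**Figure D2:**
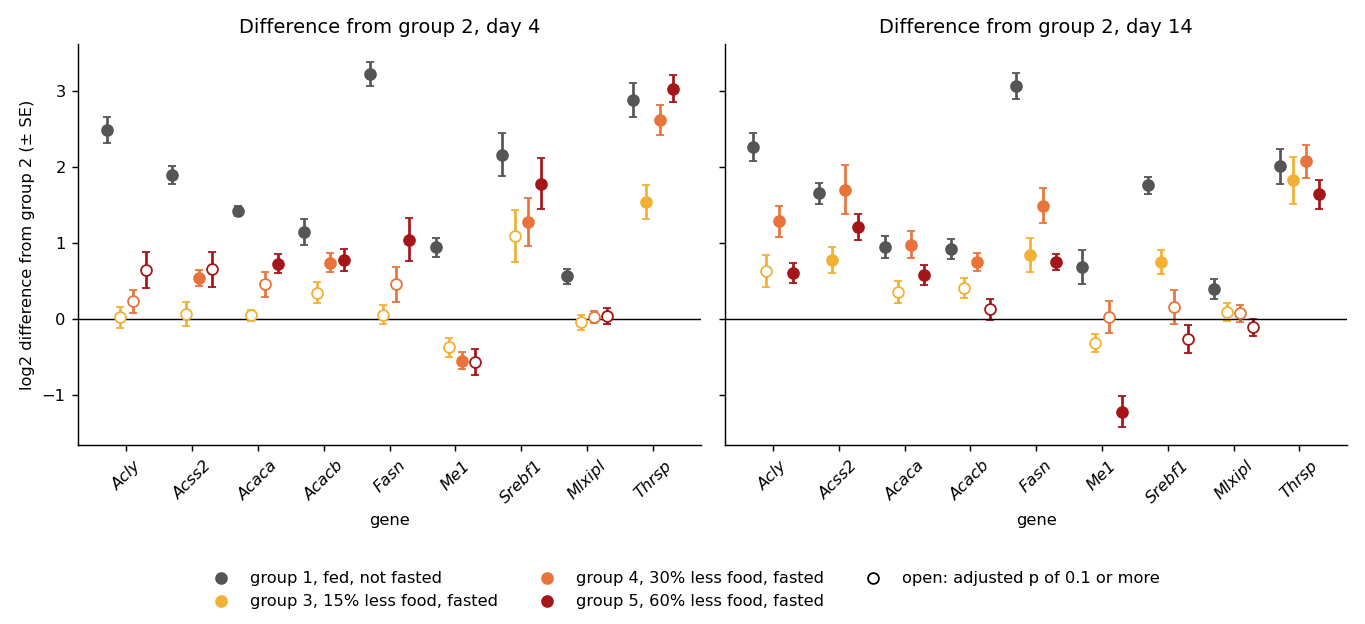
Log2 difference from group 2 (± SE, limma) of each gene in groups 1, 3, 4 and 5 at day 4 (left) and day 14 (right); filled points passed an adjusted p under 0.1 and open points did not. All points of fed group 1 are filled and above 0, Thrsp is filled in all groups, and the lowest point is Me1 in group 5 at day 14, at -1.22.

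Among the genes for acetyl-CoA supply, Acss2, which makes acetyl-CoA from acetate, passed the test in all 3 restricted groups at day 14 and in group 4 alone at day 4. At day 14 the 5 rats of group 2 stood at 9.42, 9.27, 9.51, 9.04 and 8.99. Those of group 3 stood at 10.16, 10.13, 9.37, 10.12 and 10.36, and those of group 4 at 9.78, 11.72, 11.80, 10.57 and 10.91. Group 5 stood at 10.78, 10.19, 10.25, 10.10 and 10.99. All rats of groups 4 and 5 lay above all of group 2, and group 3 overlapped through its rat 3. The differences from group 2 were 0.78 in group 3 (SE 0.17, adjusted p = 0.0211), 1.71 in group 4 (SE 0.32, adjusted p = 0.0072) and 1.21 in group 5 (SE 0.18, adjusted p = 0.000827). At day 4 the difference in group 4 was 0.54 (SE 0.10, adjusted p = 0.0193), which did not pass in the fit of all groups together (adjusted p = 0.251). In group 5 at day 4 it was larger, 0.65, but did not pass (SE 0.24, adjusted p = 0.162), and those rats ran from 9.21 to 10.56. The change of the difference between the days, tested as the day by group interaction, was 0.71, 1.16 and 0.56 in groups 3, 4 and 5 and passed in none (limma, adjusted p = 0.286, 0.26 and 0.489).

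Acly, ATP citrate lyase, stood at 9.90 ± 0.29, 10.11 ± 0.33 and 10.52 ± 0.58 (SD, n = 5 each) in groups 3, 4 and 5 at day 4, and no difference from group 2 passed the test. The largest, in group 5, was 0.65 (SE 0.23, adjusted p = 0.164), and it passed in the fit of all groups together (adjusted p = 0.0825). At day 14 Acly stood at 10.63 ± 0.48, 11.29 ± 0.47 and 10.61 ± 0.14 (SD, n = 5 each). It rose in group 4 by 1.29 (SE 0.21, adjusted p = 0.00303) and in group 5 by 0.61 (SE 0.13, adjusted p = 0.00818). The difference in group 3 was 0.64 (SE 0.21, adjusted p = 0.137), and without rat 3 of that group, the lowest of its 5, it was 0.82 (adjusted p = 0.0158). Without rat 3 of group 2 it was 0.75 (adjusted p = 0.0859).

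Of the carboxylases, Acaca, whose enzyme makes the malonyl-CoA used for synthesis, rose in group 5 at day 4 by 0.73 (SE 0.12, adjusted p = 0.00776). At day 14 it rose in group 4 by 0.98 (SE 0.18, adjusted p = 0.00621) and in group 5 by 0.58 (SE 0.13, adjusted p = 0.0123), with no overlap with group 2. In group 4 at day 14 its mean was 9.94 ± 0.43 (SD, n = 5), beside 9.91 ± 0.28 (SD, n = 4) in the fed group. Acacb, whose product controls fatty acid entry into mitochondria, rose at day 4 in group 4 by 0.74 (SE 0.13, adjusted p = 0.0128) and in group 5 by 0.78 (SE 0.15, adjusted p = 0.0132). At day 14 it rose in group 4 by 0.75 (SE 0.12, adjusted p = 0.0027), but the difference in group 5 was 0.13 (SE 0.13, adjusted p = 0.61). Red cell genes moved with group 4 at day 14 as well, since Hbb and Alas2, 2 of the 3 measured, were lower by log2 differences of -0.85 and -0.96. The mean of the 3 per rat ran from 7.93 to 9.09 in group 4 and from 8.67 to 9.27 in group 2, and of the 8 stellate cell and fibroblast markers 2 were higher and 1 lower. The part of these cells in the values of group 4 was not tested. Acacb was the dimmest of the 9, with a mean log2 intensity of 5.93, at the 42.6th percentile of all probe sets.

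Fasn rose in restricted rats by less than it differed between fed and fasted rats. At day 4 the rats of group 5 stood at 8.53, 10.19, 8.74, 9.04 and 8.39, all above the highest of group 2 (8.13), and rat 2 stood apart from the others of its group. The difference was 1.05 (SE 0.28, adjusted p = 0.062) and was lost without rat 2, 3, 4 or 5 of group 2 or rat 4 of group 5, at 0.98 to 1.07 and adjusted p from 0.102 to 0.149. The second probe set of Fasn gave 1.08 (adjusted p = 0.109).

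At day 14 the rats of group 2 stood at 8.46, 8.17, 8.33, 7.99 and 8.10 for Fasn and those of group 3 at 9.27, 9.13, 8.23, 8.83 and 9.80. Group 4 stood at 8.72, 9.59, 10.02, 10.22 and 9.97, and group 5 at 9.16, 8.84, 8.75, 8.95 and 9.12. Groups 4 and 5 lay above all of group 2, whereas rat 3 of group 3 lay within it. The differences were 0.84 in group 3 (SE 0.23, adjusted p = 0.0595), 1.49 in group 4 (SE 0.23, adjusted p = 0.00257) and 0.75 in group 5 (SE 0.11, adjusted p = 0.000699). The call in group 3 was lost without rat 2, 4 or 5 of group 2 or rat 1 or 2 of group 3, at 0.79 to 0.83 and adjusted p from 0.108 to 0.142.

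Me1 was the only one of the 9 genes that fell. At day 14 group 2 stood at 8.48, 7.94, 8.52, 8.39 and 8.53 and group 5 at 7.23, 7.26, 7.83, 6.92 and 6.54. All 5 rats of group 5 lay below all of group 2, and the level fell by 1.22 on the log2 scale (SE 0.20, 2.33-fold, adjusted p = 0.00202). At day 4 it fell by 0.55 in group 4 (SE 0.12, adjusted p = 0.0293), with an adjusted p of 0.117 in the fit of all groups together. In group 5 at day 4 the difference was -0.56 (SE 0.17, adjusted p = 0.103), and -0.69 without rat 2 of that group (adjusted p = 0.0381) and -0.64 without rat 2 of group 2 (adjusted p = 0.0874). The second probe set of Me1 gave -0.69 there (adjusted p = 0.0757) and -1.15 in group 5 at day 14 (adjusted p = 0.00651). Hbb and Alas2, genes of red cells, were also lower in group 5 at day 14, by log2 differences of -2.14 and -1.98. They are 2 of the 3 red cell genes measured, whose mean per rat ran from 7.25 to 7.99 in group 5 and from 8.67 to 9.27 in group 2, and their part in the values of group 5 was not tested.

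Thrsp gave the largest rise of the 9 genes in groups 3, 4 and 5 on both days. At day 4 the rats of group 2 stood at 10.48, 10.14, 9.92, 9.47 and 10.14 and those of group 3 at 12.24, 11.06, 11.85, 11.35 and 11.40. Group 4 stood at 12.35, 12.62, 13.29, 12.52 and 12.53, and group 5 at 12.90, 13.43, 13.13, 13.15 and 12.72. Every restricted rat lay above every rat of group 2, and every rat of groups 4 and 5 lay above all of group 3. The differences from group 2 were 1.55 (SE 0.23, 2.92-fold, adjusted p = 0.029), 2.63 (SE 0.20, 6.19-fold, adjusted p = 0.000281) and 3.03 (SE 0.18, 8.19-fold, adjusted p = 6.21e-06). Without rat 3 of group 3, the difference in that group was 1.48 with an adjusted p of 0.107.

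At day 14 group 2 stood at 10.90, 11.33, 10.32, 10.39 and 11.28 for Thrsp and group 3 at 13.04, 12.96, 11.48, 12.66 and 13.23. Group 4 stood at 12.44, 12.80, 12.87, 13.26 and 13.25, and group 5 at 12.54, 12.33, 12.38, 12.55 and 12.64. Again no restricted rat overlapped with group 2, although rat 3 of group 3 came close. The differences were 1.83 (SE 0.31, adjusted p = 0.0057), 2.08 (SE 0.22, adjusted p = 0.000163) and 1.64 (SE 0.19, adjusted p = 0.000155). All 3 probe sets of Thrsp passed the test in groups 3, 4 and 5 on both days.

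Srebf1 had its widest spread in group 2 at day 4, where the rats stood at 10.66, 9.25, 9.87, 8.81 and 9.37. Group 3 stood at 10.31, 10.24, 10.26, 11.15 and 11.47, group 4 at 11.30, 10.44, 11.39, 10.35 and 10.87, and group 5 at 12.02, 11.31, 11.81, 10.88 and 10.88. Rat 1 of group 2 overlapped with groups 3 and 4, and group 5 lay above all of group 2. The differences were 1.09 in group 3 (SE 0.34, adjusted p = 0.276), 1.28 in group 4 (SE 0.32, adjusted p = 0.0573) and 1.79 in group 5 (SE 0.33, adjusted p = 0.0126). In group 4 the call was lost without rat 2, 4 or 5 of group 2 or rat 3 or 5 of group 4, at 1.08 to 1.28 and adjusted p from 0.108 to 0.122. The fit of all groups together gave group 3 an adjusted p of 0.0603.

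By day 14 the order of the restricted groups for Srebf1 was the opposite. Group 2 stood at 10.22, 10.11, 10.60, 10.26 and 9.99 and group 3 at 10.77, 11.03, 10.86, 10.70 and 11.57, all above group 2. Group 4 stood at 9.99, 9.90, 10.11, 11.00 and 11.00, and group 5 at 9.98, 10.31, 9.64, 10.45 and 9.49, and both overlapped with group 2. Only group 3 passed the test, with 0.75 (SE 0.16, adjusted p = 0.0191), or 0.107 in the fit of all groups together. The differences in groups 4 and 5 were 0.16 (SE 0.22, adjusted p = 0.763) and -0.26 (SE 0.18, adjusted p = 0.403). The second probe set of Srebf1 gave 0.75, 0.16 and -0.16 in the 3 groups.

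Mlxipl differed from group 2 by between -0.11 and 0.10 in the restricted groups. Its means were 9.10 ± 0.22, 9.17 ± 0.16 and 9.18 ± 0.24 in groups 3, 4 and 5 at day 4, beside 9.14 ± 0.08 in group 2 (SD, n = 5 each). At day 14 they were 9.33 ± 0.21, 9.31 ± 0.15 and 9.12 ± 0.17, beside 9.23 ± 0.23 (SD, n = 5 each). No difference passed the test, with SE from 0.08 to 0.12. Over all 10 sets of rats its means spanned 0.60 on the log2 scale, at the 83.9th percentile of all genes, where those of Fasn spanned 3.35 and those of Thrsp 3.03, both at the 99.8th percentile.

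A linear trend over the food reduction in groups 2 to 5, given as the log2 difference per 60% less food, showed how each gene followed the dose. At day 4 it was upward for 7 of the 9 genes and downward for Me1, against 8.82% of all genes with a trend in either direction. The slope was 2.89 for Thrsp (SE 0.34, adjusted p = 0.000173), 1.61 for Srebf1 (SE 0.34, adjusted p = 0.007) and 1.11 for Fasn (SE 0.26, adjusted p = 0.0135). For Acaca, Acacb, Acly and Acss2 it lay between 0.68 and 0.79, and for Mlxipl it was 0.06 (adjusted p = 0.825). The trends of Acly and Acss2 were lost without rat 2 of group 5, at 0.43 (adjusted p = 0.114) and 0.49 (adjusted p = 0.105). That of Me1, -0.51 (adjusted p = 0.0561), was lost without rat 1, 4 or 5 of group 2 or rat 3 or 5 of group 5, with adjusted p from 0.105 to 0.163.

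At day 14 the trend was upward for 3 genes and downward for 1, against 24% of all genes. Acss2 had a slope of 1.18 (SE 0.38, adjusted p = 0.0324), Thrsp 1.30 (SE 0.45, adjusted p = 0.0486) and Acaca 0.59 (SE 0.23, adjusted p = 0.0873), while Me1 had -1.14 (SE 0.25, adjusted p = 0.00296). At this time the enzyme means did not rise evenly with the dose. Fasn, Acly, Acaca, Acacb and Acss2 had their highest restricted mean in group 4 and not in group 5. Groups 4 and 5 were not tested against each other. The trend of Thrsp was lost without rat 3 or 4 of group 2 (1.06 and 1.07, adjusted p from 0.107 to 0.11). That of Acaca was lost without any of 8 rats, namely the 5 of group 2, rat 3 of group 3 and rats 1 and 4 of group 5, with adjusted p from 0.11 to 0.175.

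The restricted groups were also set against the fed rats of group 1, which these comparisons share, to show how much of the fasting difference remained. At day 4, all 9 genes were lower in group 3 (16.3% of all genes passed), 8 in group 4 (22.7%) and 6 in group 5 (23.8%). At day 14, 7 were lower in group 3 (22.4% of all genes), 4 in group 4 (24.7%) and 7 in group 5 (34.1%). None of the 9 was higher than in group 1 in any of these comparisons. Markers of other cells were also lower in group 5 than in group 1 at day 14, namely 5 of 8 for stellate cells and fibroblasts, 4 of 5 for Kupffer cells, 3 of 7 for T and NK cells and 2 of 3 for red cells. The stellate and fibroblast mean per rat ran from 7.53 to 8.08 in group 5 and from 8.65 to 8.97 in group 1, and the red cell mean from 7.25 to 7.99 and from 8.62 to 8.97. The Kupffer cell mean ran from 9.72 to 10.23 and from 10.16 to 10.49, and that of T and NK cells from 5.71 to 5.91 and from 6.02 to 6.17. At day 4 the stellate and fibroblast markers were lower in group 5 for 5 of 8 as well, whereas 4 of 5 Kupffer cell markers were higher in group 4. The part of these cells in the differences from group 1 was not tested.

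Expressed as a share of the distance from the group 2 mean to the group 1 mean, Thrsp reached 53.6%, 91.2% and 105.2% in groups 3, 4 and 5 at day 4 and 90.8%, 103.2% and 81.6% at day 14. Against group 1 its differences were 0.15 (SE 0.20, adjusted p = 0.692) in group 5 at day 4 and 0.06 (SE 0.19, adjusted p = 0.862) in group 4 at day 14. In group 5 at day 14 Thrsp was lower than in group 1 by a log2 difference of -0.37 (SE 0.14, adjusted p = 0.0693), a call lost without rat 1, 2 or 3 of group 1 or rat 2 or 3 of group 5 (adjusted p from 0.117 to 0.179).

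Fasn covered far less of the distance, with 1.8%, 14.2% and 32.4% at day 4 and 27.5%, 48.7% and 24.6% at day 14, and it was lower than in group 1 in all 6 comparisons with no overlapping rat. Acly was likewise below the fed rats throughout, with shares from 1.0% to 56.8%. Acaca and Acss2 reached 103.3% and 103.0% in group 4 at day 14, where their differences from group 1 were 0.03 (SE 0.21, adjusted p = 0.944) and 0.05 (SE 0.36, adjusted p = 0.949). Srebf1 reached 50.3%, 58.9% and 82.4% at day 4, and 42.6%, 9.2% and -14.9% at day 14. These shares rest on the means of 4 or 5 rats and carry no test of their own.

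The order of the 5 groups differed between genes. For Fasn at day 4 it was group 1, then 5, 4, 3 and 2, and at day 14 group 1, then 4, 3, 5 and 2. Only group 1 was separate from its neighbour at day 4, and at day 14 also group 2 from group 5. For Thrsp it was 5, 1, 4, 3 and 2 at day 4 and 4, 1, 3, 5 and 2 at day 14. The first 3 overlapped with their neighbours at day 4, and the first 4 did so at day 14. For Me1 it was 1, 2, 3, 4 and 5 at day 4, with group 1 separate, and 1, 4, 2, 3 and 5 at day 14, with group 5 separate. For Srebf1 at day 14 it was 1, 3, 4, 2 and 5, with group 1 separate from group 3 and all other neighbours overlapping.

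Day 14 was then compared with day 4 within each group. In group 1, 0 of the 9 genes differed between day 14 and day 4 by limma (0% of all genes), with 1 gene at an unadjusted p under 0.05 and 0 by LNN-MV, the lognormal model that the study's methods name. In group 2, 0 differed (0.00703% of all genes), with 6 at an unadjusted p under 0.05 and 0 by LNN-MV. The differences in group 2 were above 0 for 8 of the 9 genes, with 0.81 for Thrsp (SE 0.23, adjusted p = 0.352) and 0.64 for Srebf1 (SE 0.28, adjusted p = 0.562). In group 3, 6 were higher at day 14 (12.8% of all genes), and in group 4, 5 were higher (5.47%), while in group 5, 3 were lower (6.71%). The labels name no batch. Time on the diet, the age of the rats and handling on different days cannot be told apart within a group.

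In group 4, Acss2 was higher at day 14 than at day 4 by 1.46 (SE 0.32, adjusted p = 0.0343) and Acly by 1.18 (SE 0.22, adjusted p = 0.0212). Fasn was higher by 1.32 (SE 0.31, adjusted p = 0.0495), which was lost without rat 1 or 4 at day 4 or rat 3 or 4 at day 14 (adjusted p from 0.102 to 0.125). Acaca and Acacb, at 0.77 and 0.33, were lost without any of 8 rats each, all but rat 3 at day 4 and rat 1 at day 14, with adjusted p from 0.121 to 0.204 and from 0.127 to 0.206. In group 3 the genes were Acss2 (1.01), Fasn (1.06), Acaca (0.56), Acly (0.73), Thrsp (1.10) and Acacb (0.38). The call of Acly was lost without rat 1, 2 or 3 at day 4 or rat 1, 2 or 5 at day 14 (0.61 to 0.75, adjusted p from 0.108 to 0.139). That of Thrsp was lost without rat 2, 4 or 5 at day 4 or rat 1, 2 or 5 at day 14 (0.96 to 1.05, adjusted p from 0.108 to 0.131). That of Acacb was lost without any of 8 rats, all but rat 5 at day 4 and rat 3 at day 14 (0.28 to 0.40, adjusted p from 0.103 to 0.167).

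In group 5, Srebf1 fell by 1.41 on the log2 scale (SE 0.25, adjusted p = 0.017) and Thrsp fell by 0.58 (SE 0.12, adjusted p = 0.0258), the latter with an adjusted p of 0.149 in the fit of all groups together. Me1 fell by 0.91 (SE 0.23, adjusted p = 0.0545), and this was lost without rat 1 or 2 at day 4 or rat 1, 4 or 5 at day 14 (adjusted p from 0.101 to 0.114).

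**Figure D3:**
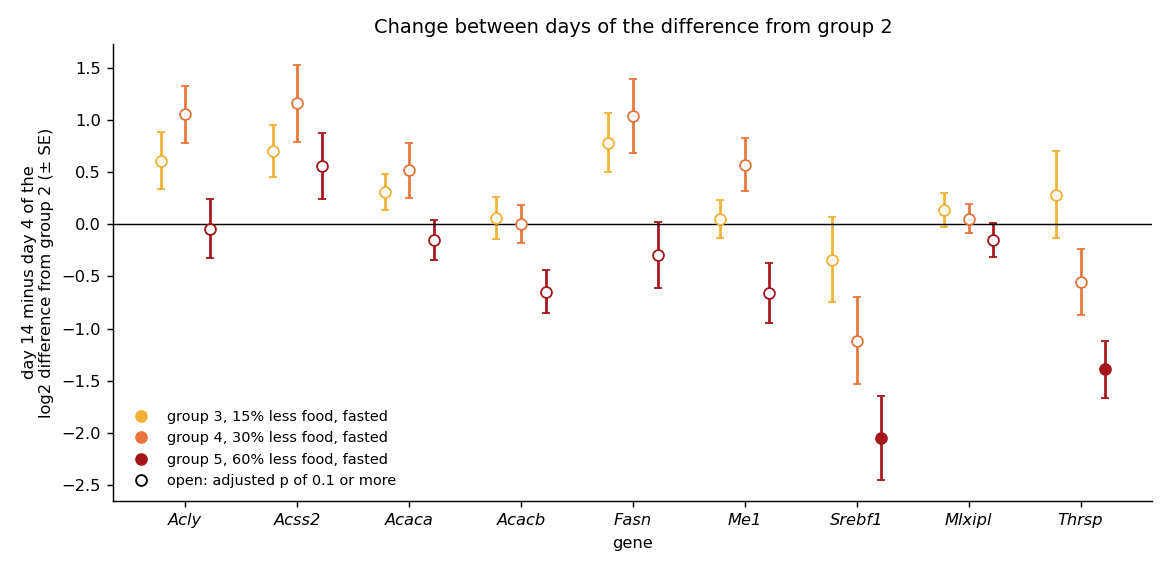
Day 14 minus day 4 of the log2 difference from group 2 (± SE, limma interaction term) for each gene in groups 3, 4 and 5; filled points passed an adjusted p under 0.1. Filled points are Srebf1 and Thrsp in group 5, at -2.05 and -1.39, and the points of Acly, Acss2 and Fasn in group 4 lie above 1 but are open.

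Whether the difference from group 2 itself changed between the days was tested by the interaction of day and group, which takes out a shift between days that the groups share. With 60% less food, 2 of the 9 genes had a lower difference at day 14 (2.04% of all genes passed in either direction). The interaction was -2.05 for Srebf1 (SE 0.40, adjusted p = 0.0243) and -1.39 for Thrsp (SE 0.28, adjusted p = 0.0243). Over all alternative settings and left-out rats the interaction ran from -2.32 to -1.82 for Srebf1 and from -1.52 to -1.25 for Thrsp, with an adjusted p of at most 0.059. All probe sets of both genes passed. Each value includes the difference between the days in group 2, 0.64 for Srebf1 and 0.81 for Thrsp, which did not pass the test. Among the markers, 2 of the 3 red cell genes had a lower difference in this test too (median -1.47 over the 3), with 1 of 8 stellate cell and fibroblast and 1 of 8 hepatocyte markers, and their part was not tested.

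For group 4, 0 of the 9 genes passed the interaction test by limma (0.134% of all genes), with 5 at an unadjusted p under 0.05. Acss2 had 1.16 (adjusted p = 0.26), Acly 1.05 (adjusted p = 0.165) and Fasn 1.04 (adjusted p = 0.292). Acly passed without rat 3 at day 4 or rat 1 at day 14 of group 4 (1.25 at most), Acss2 without rat 1 at day 14 (1.46, adjusted p = 0.0521) and Fasn without rat 3 at day 4 (1.28, adjusted p = 0.0864). For group 3, 0 passed (0.591% of all genes) with 3 at an unadjusted p under 0.05, and without rat 3 of group 3 at day 14 Acss2 (0.87) and Fasn (0.99) passed. For fed group 1, 0 passed (0% of all genes) with 2 at an unadjusted p under 0.05. LNN-MV has no interaction term.

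The genes around the pathway were taken as short lists written by hand, also with earlier results of these data known. Their counts stand beside shares of all genes that passed of 21.3% and 13.2% in group 1 and 7.14% and 19.8% in group 5, at day 4 and day 14, and 12.8% in group 4 at day 14. Of 12 measured genes of acetyl group, malonyl and NADPH supply, group 1 had 3 above and 3 below group 2 at day 4, and 5 and 1 at day 14. In group 5 these counts were 2 and 2 at day 4 and 2 and 4 at day 14. Pgd, which makes NADPH in the pentose phosphate pathway, was higher in group 1 by 1.51 (adjusted p = 6.95e-08) and 1.25 (adjusted p = 8.27e-05), and in group 5 by 0.38 (adjusted p = 0.0589) at day 4. Slc25a1, the mitochondrial citrate carrier that feeds Acly, was higher in group 1 by 0.86 and 0.77 and in group 5 at day 4 by 0.34. In group 5 at day 14, Pc (pyruvate carboxylase) was lower by a log2 difference of -0.44 (adjusted p = 0.000999), and Me3, the mitochondrial malic enzyme, was higher by 0.86 (adjusted p = 0.00106), opposite to Me1. Median differences of this list lay between -0.08 and 0.12 in all 8 comparisons with group 2.

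Of 10 genes for the steps after palmitate, 8 were higher in group 1 at day 4 (21.3% of all genes) and 6 at day 14 (13.2%), with none lower. By day 14, group 4 had 5 genes up and 2 down (12.8% of all genes), and group 5 had 2 each way (19.8%). Scd, the stearoyl-CoA desaturase, was higher in group 1 by 4.15 at day 4 (adjusted p = 0.00323) and in group 4 at day 14 by 3.72 (adjusted p = 6.05e-05). Fads1, a desaturase of polyunsaturated fatty acids, was higher in group 5 by 1.30 (adjusted p = 0.00489) and 0.95 (adjusted p = 0.00208). Gpam, which starts glycerolipid synthesis, was lower in group 5 by log2 differences of -0.92 (adjusted p = 0.000347) and -1.76 (adjusted p = 1.78e-06), so that it moved opposite to Fasn.

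Of 15 genes for the processing of SREBP and its partners, group 5 had 2 up and 1 down at day 4 (7.14% of all genes), and 2 each way at day 14 (19.8%). Insig1 and Insig2, which hold SREBP in the endoplasmic reticulum, differed in opposite directions. Insig1 was higher in group 5 by 1.08 at day 4 (adjusted p = 0.0297) and 1.96 at day 14 (adjusted p = 0.000505). Insig2 was lower by log2 differences of -1.29 (adjusted p = 0.00682) and -1.69 (adjusted p = 0.000505). Srebf2, whose factor acts mainly on cholesterol genes, was higher in group 5 by 0.50 at day 4 and 0.55 at day 14, the day on which Srebf1 was not. The list's median difference in group 5 was 0.05 and -0.07.

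**Figure D4:**
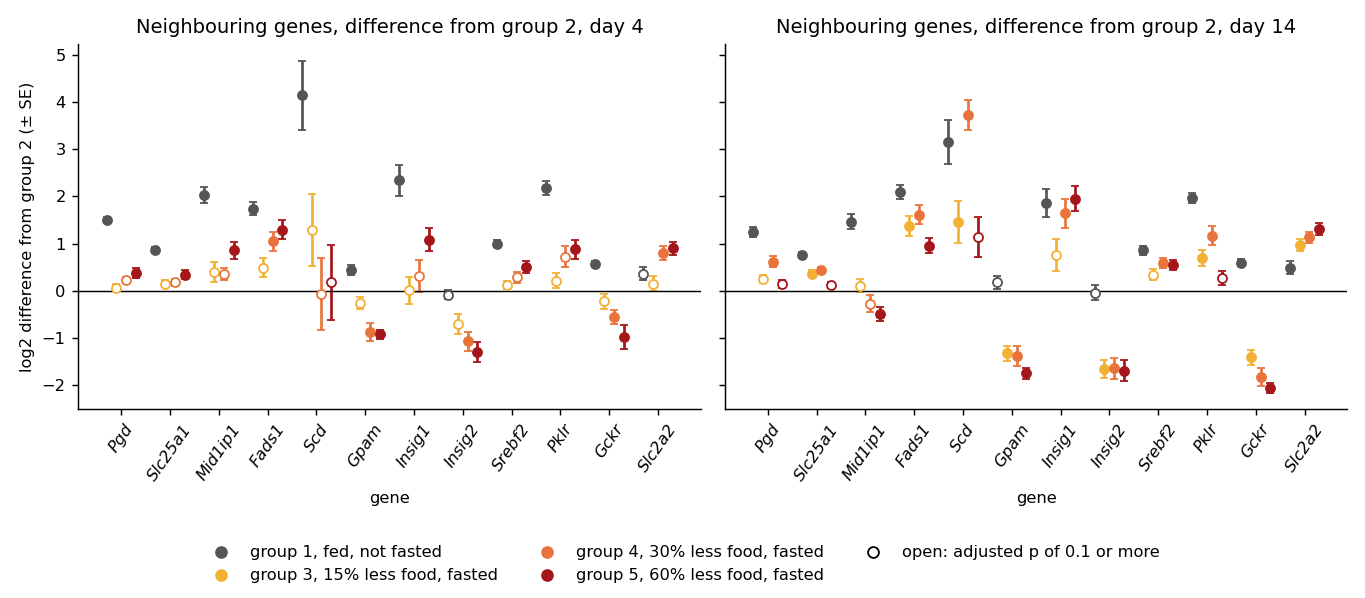
Log2 difference from group 2 (± SE, limma) of 12 genes around the pathway at day 4 (left) and day 14 (right) in groups 1, 3, 4 and 5; filled points passed an adjusted p under 0.1. Gpam, Insig2 and Gckr lie below 0 in all restricted groups on both days, and Insig1 in group 5 at day 14 stands at 1.96.

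Of 8 measured genes for the ChREBP partner and glucose response, 5 were higher in group 1 at day 4 (21.3% of all genes), and 6 rose and 1 fell at day 14 (13.2%). Group 5 had 5 up and 1 down at day 4 (7.14% of all genes), and 2 each way at day 14 (19.8%). Pklr, liver pyruvate kinase and a classic ChREBP target, was higher in group 1 by 2.17 (adjusted p = 4.47e-06) and 1.96 (adjusted p = 6.83e-06). Gckr, the glucokinase regulator, was lower in group 5 by log2 differences of -0.98 (adjusted p = 0.0597) and -2.05 (adjusted p = 3.57e-07), while Mlxipl itself did not pass.

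Of the 9 measured regulators of acetyl-CoA carboxylase, Mid1ip1, the paralog of Thrsp that promotes carboxylase polymerization, was higher in group 1 by 2.03 and 1.47. In group 5 it was higher by 0.86 at day 4 (adjusted p = 0.0181) and lower by a log2 difference of -0.50 at day 14 (adjusted p = 0.0387), where Thrsp was higher. Prkaa2, a catalytic subunit of AMPK, the kinase that inhibits the carboxylases, was higher in group 5 at day 14 by 0.44 (adjusted p = 0.00973), and Hlcs, which attaches their biotin, was lower by a log2 difference of -0.36 (adjusted p = 0.0751). Of these regulators, 1 was higher in group 5 at day 4 with none lower, and 1 was higher and 2 lower at day 14. Of 6 genes of the thyroid hormone response, Dio1, a deiodinase, was higher in group 1 by 0.65 and 0.69 and in group 5 by 0.89 at day 4 (adjusted p = 0.0801). Gpd2, mitochondrial glycerol phosphate dehydrogenase, was lower in group 5 by log2 differences of -0.70 and -0.78 (adjusted p = 0.0282 and 0.000337), in the opposite direction to Thrsp.

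The genes with the most similar pattern to each of the 9 were found by Pearson's r over the 10 means of group and day, as a description only, since these means share rats with the comparisons above. Fasn and Acly were both closest to Pgd (r = 0.992 and 0.994). Acss2 was closest to Cyp51 (r = 0.99), Msmo1 and Ebp (r = 0.988 each), which are enzymes of cholesterol synthesis. Acaca was closest to Acat2 (r = 0.979) and Thrsp to Pdlim1 (r = 0.966) and Bhlhe40 (r = 0.962). Srebf1 was closest to Slc25a23 (r = 0.977), Me1 to Tmem33 (r = 0.963), Acacb to Sec61a1 (r = 0.984) and Mlxipl to Mgst3 (r = 0.987).

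The tissue was checked against markers. The 8 measured hepatocyte markers, among them Alb and Ttr, lay at the 97.4th percentile of genes or above. Fat tissue also makes fatty acids with these enzymes, and its defining genes Adipoq, Lep and Plin1 lay at percentiles 12.6, 12.3 and 11.0. Of the other adipocyte genes, Fabp4, Pparg, Cfd and Cidec lay at percentiles 12.6, 41.5, 73.9 and 84.7. The mean of the 7 measured adipocyte genes per rat ran from 6.19 to 6.62. Of these genes, group 3 had 1 and group 4 had 2 above group 2 at day 14, and no others passed in the comparisons with group 2. Within a group and day, arrays correlated at r from 0.989 to 0.995 and none was a copy of another.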

How the data were processed

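Liver RNA of 49 rats was hybridized to Affymetrix Rat Genome 230 2.0 arrays. The authors checked the arrays in Expression Console and normalized them by RMA in R 3.0.1 with affy 1.38.1. The deposited table gives 1 linear intensity, rounded to a whole number, for each of 31042 probe sets, and no detection calls. Rounding to whole numbers gives steps of up to 0.17 on the log2 scale at the lowest intensity.

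Here log2 was taken of the deposited intensities. Probe sets with 1 symbol alone (20826) were kept, and the brightest of each gene was used, which gave 14217 genes. Groups were taken from the sample labels, and each comparison was a separate fit in limma 3.58.1 (R 4.3.3), with Benjamini-Hochberg adjustment over all genes and a threshold of adjusted p under 0.1. A trend over groups 2 to 5 and a day by group interaction were fitted likewise. The fits were tested on simulated data. The study's own model, LNN-MV, was rewritten from its published form, not checked against the package the study used, and served as an alternative. Further alternatives were another threshold, one fit of all groups, a filter on dim genes (9703 genes kept), the mean of all probe sets or the second brightest, quantile normalization, array weights, robust empirical Bayes and leaving out each rat. The numbers of 4 or 5 rats per group limit the precision. The labels name 1 subject per array, so rats were taken as the replicates. The study's methods have rats kept in groups or pairs, and the labels name no cage. Rats that shared a cage could therefore not be accounted for in the tests.

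All 9 genes were counted in each comparison, with values for those described. From the other lists, 2 to 4 genes were named by the largest log2 difference among those called in group 1 or 5 against group 2, together with the values of the same genes in other groups. The 9 genes and all lists were chosen with earlier results of these data known. Promoter windows come from the RefSeq table of build GRCr8. Fluxes and the metabolic model were not analysed here.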

Additional observations from a re-analysis of the deposited data

Results flagged for a closer look

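Of 90 sets of values (9 genes in 10 sets of rats), 7 held a rat that lay farther from the others than Dixon's 95% limit allows, and chance alone gives about 1 in 20 sets. The gap to the nearest rat, as a share of the whole range, was 0.748 for Acaca in group 4 at day 4, where rat 3 stood at 9.88 and the others between 8.88 and 9.13. It was 0.741 for Acly in group 5 at day 4 (rat 2 at 11.53, the others between 10.07 and 10.45) and 0.864 for Acacb in group 3 at day 4 (rat 5 at 5.95, the others between 5.49 and 5.55). Low rats were found for Acss2 in group 3 at day 14 (0.761; rat 3 at 9.37, the others from 10.12) and for Thrsp in group 1 at day 14 (0.884; rat 4 at 12.37, the others from 12.98). Me1 had a low rat in group 2 at day 14 (0.756; rat 2 at 7.94) and in group 3 at day 4 (0.848; rat 3 at 7.88).

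The difference between group 5 and group 2 itself differed between the days for Srebf1, by -2.05, and for Thrsp, by -1.39 on the log2 scale (limma interaction, adjusted p = 0.0243 for both, 5 rats per group and day).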

How the results depend on the processing

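No direction of a called difference turned under any alternative run. Of 225 results for single genes, the calls changed in 18 with one fit of all groups, in 16 with an adjusted p under 0.05 and in at most 6 with the array weights, the filter on dim genes, robust empirical Bayes, quantile normalization or the other uses of probe sets, and LNN-MV, which was run for 171 of them, changed 7. Acacb, Acly, Acss2 and Mlxipl have 1 probe set each, so their differences could not change with the other uses of probe sets. With one fit of all groups, the count of genes called was 2 in group 3 against group 2 at day 4 (from 1) and 3 in group 4 against group 2 at day 4 (from 5). With an adjusted p under 0.05, the counts for day 14 against day 4 were 3 in group 3 (from 6) and 3 in group 4 (from 5). Leaving out 1 rat in turn gave 0 to 1 genes in group 3 against group 2 at day 4, 3 to 7 at day 14, 2 to 4 for the trend at day 14, 3 to 6, 2 to 5 and 2 to 4 for day 14 against day 4 in groups 3, 4 and 5, and 0 to 2 for the interactions of groups 3 and 4. Without 1 rat, group 1 against group 2 at day 14 gave 7 to 8 genes (from 9). Of 2736 results with 1 rat left out, 111 lost a call and 28 gained one. No paired analysis was possible because the labels give the groups no shared replicate numbers. RMA without detection calls limits what can be said of dim genes such as Acacb.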
